A study of Homo sapiens with 12 samples.

Results

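The human NLRP genes of chromosome band 19q13 that are described here are NLRP12, NLRP7, NLRP2, NLRP9, NLRP11, NLRP4, NLRP13, NLRP8 and NLRP5, in the order in which they lie along the chromosome. They are 9 of the 20033 protein-coding genes with a position in the gene table used, and each was measured over its gene span plus 1500 bp on either side. The genes were chosen by the differences in 5-methylcytosine (5mC) already seen between these samples, so their 5mC differences are given as a description and carry no test. The second mark, 5-hydroxymethylcytosine (5hmC), was not used to choose them and was tested, although by the principle of the assay both marks draw on the oxidative libraries.

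The cells were SV-HUC-1, an established line of human urothelial epithelium immortalised with SV40. They were harvested 3 days after exposure to DCBQ (2,6-dichloro-1,4-benzoquinone), a chlorinated quinone that can form when water is disinfected, or to a blank solution, which served as the control. The labels list 12 libraries: for each condition 3 by reduced representation bisulfite sequencing (RRBS) and 3 by its oxidative form (oxRRBS). Bisulfite alone reads 5mC and 5hmC together, whereas oxidation beforehand leaves only 5mC protected. The deposited tables give 1 level of each mark per CpG for 3 control and 3 DCBQ columns. The sources used here do not say how the library types were combined, nor that samples of a group came from separate cultures. Any p-value is therefore relative to a spread between samples that may be technical only. The tables hold 3689712 CpGs for 5mC and 3534314 for 5hmC, with no read depth, so the depth behind each level is unknown. As a check of the cell type, 7 of 7 epithelial markers had low 5mC at the gene end richer in CpGs in the control samples (1.16% to 10.9%). The 3 of 7 leukocyte markers with enough CpGs lay at 24.6% (ITGB2), 84.1% (CD3D) and 89.4% (CD14).

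NLRP proteins are cytosolic proteins built from a pyrin domain, a NACHT domain that binds nucleotides, and leucine-rich repeats. Some members of the family, NLRP3 above all, assemble inflammasomes, the platforms that activate inflammatory caspases. Many of the genes on chromosome 19 are instead known for expression in oocytes and early embryos. NLRP5 belongs to the subcortical maternal complex of the egg. Maternal variants of NLRP7 cause recurrent hydatidiform mole, and NLRP2 and NLRP5 have been linked to disturbed genomic imprinting in the offspring. 5mC is the main cytosine mark of mammalian DNA, and 5hmC is the product of its oxidation by TET enzymes.

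RRBS reads only the DNA near sites of the enzyme MspI, CCGG, and the start sites of these genes were thinly covered. RefSeq promoter windows (GRCh38.p14) of 300 bases, from 250 bases before to 50 after a start, were matched by symbol for 8 of the 9 genes, with 10 windows in all, since NLRP2 and NLRP11 each had 2. CCGG, which reads the same on both strands, occurred in 6 of the 10 windows and in 63.1% of the 35116 windows of all genes. The median number of CG dinucleotides was 9 in the 10 windows and 14 in all windows. Only the NLRP5 window, chr19:55986525-55986824 on the plus strand, held CpGs listed in the 5mC table. Its 3 listed CpGs are in capitals below, and the last of them, 107 bases before the start, is the listed CpG nearest to any start of the 9 genes. The windows of both NLRP2 starts, chr19:54965034-54965333 and chr19:54966124-54966423 on the plus strand, are shown because they lie in the region shared by NLRP2 and NLRP7 and are close copies. They begin 1090 bp apart and are identical at 297 of 300 bases, and capitals mark the 3 bases that differ, G142C, A273G and A284T, with positions counted from the 5′ end and the base at the first start given first.
NLRP5: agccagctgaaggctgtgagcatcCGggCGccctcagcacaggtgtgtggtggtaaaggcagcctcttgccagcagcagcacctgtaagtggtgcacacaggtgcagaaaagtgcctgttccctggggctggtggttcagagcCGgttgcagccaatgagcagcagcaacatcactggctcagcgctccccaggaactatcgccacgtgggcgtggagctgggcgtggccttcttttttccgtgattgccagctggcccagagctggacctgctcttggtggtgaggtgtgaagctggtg
NLRP2 start 1: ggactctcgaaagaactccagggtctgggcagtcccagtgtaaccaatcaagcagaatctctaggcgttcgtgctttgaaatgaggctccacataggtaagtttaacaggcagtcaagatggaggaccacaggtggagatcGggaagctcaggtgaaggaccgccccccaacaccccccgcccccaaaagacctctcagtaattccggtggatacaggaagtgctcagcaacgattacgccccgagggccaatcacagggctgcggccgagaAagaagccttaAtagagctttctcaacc
NLRP2 start 2: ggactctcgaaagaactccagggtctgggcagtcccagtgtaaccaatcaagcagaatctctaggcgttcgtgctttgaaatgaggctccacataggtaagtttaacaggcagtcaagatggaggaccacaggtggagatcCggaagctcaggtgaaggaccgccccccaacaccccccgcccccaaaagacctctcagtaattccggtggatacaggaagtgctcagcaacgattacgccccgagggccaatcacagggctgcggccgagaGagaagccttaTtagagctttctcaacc
Whether a listed CpG lies in an exon, an intron or a UTR was not analysed here, since the gene table gives only the ends of each gene.

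In the control samples, 5mC divided the 9 genes into a highly methylated trio at the centromeric end and a less methylated group of 6 further along. NLRP12, NLRP7 and NLRP2 had control means of 76.3%, 71.5% and 74.2%, which exceeded 87.9%, 82.5% and 85.5% of the 18416 gene spans with at least 5 CpGs. The other 6 genes ran from 33.0% in NLRP13 through 38.7% in NLRP4, 43.0% in NLRP9, 47.6% in NLRP11 and 52.8% in NLRP8 to 57.4% in NLRP5. The median span of all genes stood at 45.4%. In this order from NLRP13 up to NLRP12, the control samples of neighbouring genes did not overlap, except those of NLRP7 and NLRP2. The extended spans of 3 pairs of adjacent genes overlap and share CpGs: NLRP7 with NLRP2, NLRP11 with NLRP4 and NLRP8 with NLRP5. Together the 9 spans held 524 listed CpGs for 5mC, from 21 in NLRP13 to 108 in NLRP5, and 441 for 5hmC.

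**Figure D1:**
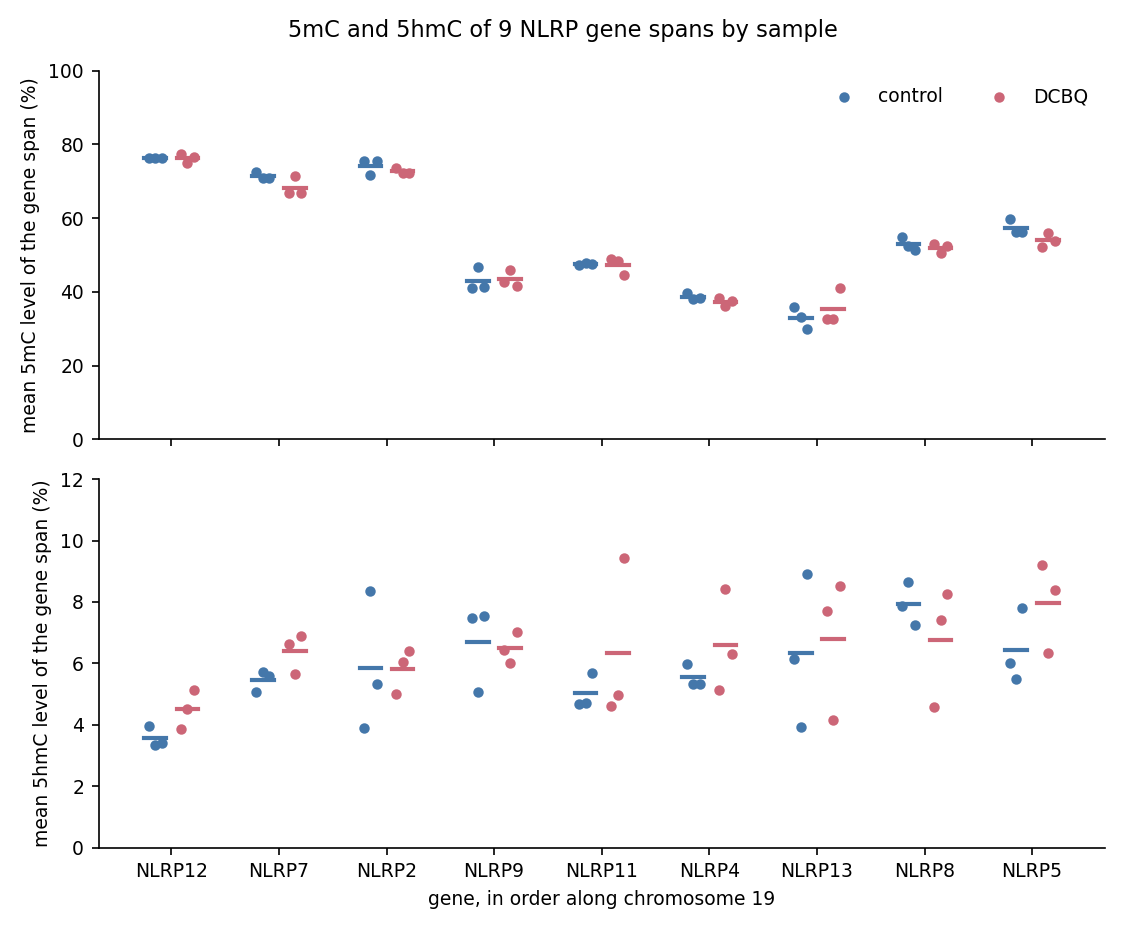
Mean 5mC (upper panel) and 5hmC (lower panel) of each gene span in percent, one point per sample and a bar at the mean of 3, with control in blue and DCBQ in red. NLRP12, NLRP7 and NLRP2 sit above 66% 5mC in every sample, and NLRP5 is the only gene whose 5mC groups do not overlap.

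The DCBQ samples had lower mean 5mC than the controls in 7 of the 9 genes, with a median difference of -0.889 percentage points. Of all 18416 spans, 70.0% were lower, with a median of -0.272 points. NLRP5, the subcortical maternal complex gene (chr19:55986775-56061810), had the most negative value. Its span held 59.6%, 56.2% and 56.3% 5mC in the control samples and 52.1%, 55.9% and 53.8% in the DCBQ samples. Each DCBQ sample lay below each control, a difference of -3.45 points (SE 1.57, n = 3 per group). NLRP5 was the only 1 of the 9 whose groups did not overlap, against 13.9% of all spans that were lower and 2.44% that were higher in this way.

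NLRP7, the gene of recurrent mole (chr19:54923515-54966243), came next. Its 5mC was 72.6%, 70.9% and 70.9% in the control samples and 66.8%, 71.3% and 66.7% in the DCBQ samples. The difference was -3.18 points (SE 1.63), and DCBQ2 lay among the controls. NLRP2 (chr19:54965284-55001138) held 75.4%, 71.8% and 75.5% in the control samples against 73.5%, 72.3% and 72.2%, a difference of -1.55 points (SE 1.29). Its groups overlapped, because Control2 was as low as the DCBQ samples.

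NLRP4, known as an inhibitor of type I interferon signalling (chr19:55836540-55881855), held 39.7%, 37.9% and 38.4% in the control samples against 38.2%, 36.2% and 37.4%. All 3 remaining negative differences were smaller than 1 point: -0.889 in NLRP8, -0.209 in NLRP11 and -0.008 in NLRP12, a gene of myeloid cells in which inherited variants cause a periodic fever. NLRP12 was also the most even, at 76.3% in each control sample. NLRP9 and NLRP13 had positive differences of 0.408 and 2.34 points. In NLRP13 the value rested on DCBQ3 and on the flank. DCBQ3 held 40.9%, against 32.6% and 32.5% in the other DCBQ samples and 36.0%, 33.1% and 30.0% in the controls. Without DCBQ3 the NLRP13 difference was -0.445 points, and with no flank it was 0.098 points.

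Several of these 5mC differences rested on single samples or on the flank. In NLRP9 the value turned to -0.620 points without Control1, -0.389 without Control3 and -0.815 without DCBQ2, and it was 2.23 points without Control2 and -4.37 with the median over CpGs. In NLRP2 it was -0.952 without Control1, -0.920 without Control3, -2.77 without Control2, 0.542 with no flank and 1.70 with the median. The sign also turned in NLRP8 without Control1 (0.094) and over CpGs in both tables (0.846), in NLRP11 without DCBQ3 (1.16) and with a 5000 bp flank (0.240), and in NLRP12 without DCBQ2 (0.669). NLRP5, NLRP7 and NLRP4 stayed below 0, although the median over CpGs gave -1.10, -1.35 and -4.48 points, a 5000 bp flank -1.72 points in NLRP7, and leaving out DCBQ2 -0.831 points in NLRP4.

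5hmC was low in every gene and did not differ detectably between the groups. Control means ran from 3.57% in NLRP12 to 7.93% in NLRP8, and 8 of the 9 exceeded at least 91.3% of all spans, whose median was 2.52%. Only NLRP12, below the other 8, was separated from its neighbour in the order by non-overlapping control samples. Exact zeros made up 44.0% of the values at the CpGs of these genes and 54.95% of the whole 5hmC table. The DCBQ mean was higher in 6 of the 9 genes and lower in 3, with a median difference of 0.932 points against 0.071 over all 18322 spans. No gene had groups that did not overlap, against 6.48% of all spans that were higher and 3.45% that were lower in this way.

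Limma with Benjamini-Hochberg adjustment over all spans called none of the 9 for 5hmC, and 0 spans in all (0.0%), while 946 spans (5.16%) had an unadjusted p under 0.05, none of them 1 of the 9. The largest 5hmC difference was in NLRP5, at 6.01%, 5.49% and 7.79% in the control samples and 9.20%, 6.33% and 8.40% in the DCBQ samples. That was 1.55 points higher (limma SE 1.35, adjusted p = 0.984), with DCBQ2 among the controls. It was 0.934 points without DCBQ1, where NLRP11 (2.16) and NLRP4 (1.81) exceeded it, and 2.37 points without DCBQ2. The smallest unadjusted limma p belonged to NLRP12, where 5hmC was 0.933 points higher (limma SE 0.498, adjusted p = 0.974). The 5hmC of NLRP12 was 3.97%, 3.34% and 3.41% in the control samples and 3.88%, 4.51% and 5.13% in the DCBQ samples, and these groups overlapped.

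At single CpGs the groups also seldom separated. For 5mC, 35 of the 524 CpGs (6.68%) lay lower in every DCBQ sample than in every control, and 16 (3.05%) lay higher. The shares over all 3689712 CpGs were 4.32% and 3.11%. For 5hmC, 10 of 441 (2.27%) were lower and 18 (4.08%) higher, against 2.59% and 2.8% of all CpGs. Limma called none of the 441 for 5hmC, where 17 had an unadjusted p under 0.05. Over the whole table it called 1 CpG (3.17e-05%), and 1.88% had an unadjusted p under 0.05. The spread between samples of a group was wide: the median SD at a CpG was 7.75 points for 5mC in these genes, against 3.87 over all CpGs, and 5.56 against 2.95 for 5hmC. The CpGs compared were not matched for level. Exact zeros made up 5.09% of the 5mC values in these genes and 17.69% of all, and 44.0% and 54.95% for 5hmC.

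The CpGs were listed in short patches, as RRBS yields. Runs of CpGs no more than 300 bp apart formed 95 patches for 5mC in these genes, 80 of them with at least 3 CpGs and the longest with 17. Of these, 2 patches reach past the end of a span and were kept whole, with 3 CpGs outside. Patches of 1 gene differed widely: control means in NLRP5 ranged from 14.97% to 96.1% over 16 patches, in NLRP4 from 3.26% to 66.7% over 11, and in NLRP7 only from 53.7% to 84.2% over 10. The patches at 66.7% in NLRP4 and 53.7% in NLRP7 are those that reach past a span. Only 3 of the 80 patches lay under 20%, and they belonged to NLRP4, NLRP8 and NLRP5. The lowest was a patch of 5 CpGs in NLRP4 (chr19:55848564-55848749) with 2.62%, 2.72% and 4.44% in the control samples and 13.2%, 1.18% and 4.20% in the DCBQ samples.

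**Figure D2:**
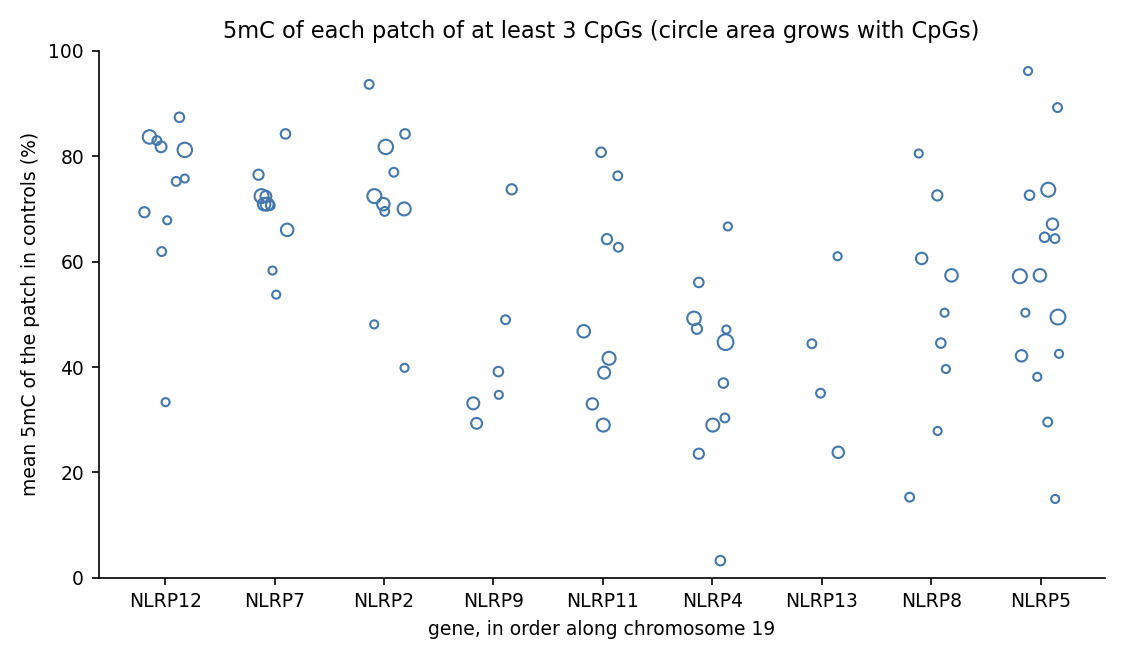
Mean 5mC in the 3 control samples, in percent, of each patch of at least 3 CpGs, by gene; the area of a circle grows with its number of CpGs. Patches of NLRP7 stay between 53.7% and 84.2%, while those of NLRP4, NLRP8 and NLRP5 reach below 20%.

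In 5 of the 80 patches (6.25%) 5mC was lower in every DCBQ sample than in every control, and in 3 (3.75%) it was higher. The background over the 272964 patches of at least 3 CpGs on the main chromosomes was 7.86% lower and 3.43% higher. The same count for 5hmC was 3 of 65 patches lower (4.62%) and 4 higher (6.15%), against 4.42% and 5.48% of all patches. Both shares lie near the background, so the patches below are given as values.

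NLRP5 held 3 of the 5 lower patches. The largest, of 15 CpGs at chr19:55990181-55990717, had 54.1%, 49.2% and 45.1% 5mC in the control samples and 41.7%, 41.9% and 44.8% in the DCBQ samples. DCBQ3 and Control3 nearly met. A patch of 4 CpGs at chr19:56036164-56036220 went from 93.8%, 85.0% and 88.9% to 71.4%, 82.1% and 75.0%. The remaining one, of 3 CpGs, differed by -8.67 points.

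Beyond the far end of NLRP5, a patch of 8 CpGs (chr19:56062930-56063123) showed the largest 5hmC difference among those patches of at least 5 CpGs whose groups did not overlap. Its 5hmC was 8.48%, 12.4% and 14.6% in the control samples and 22.5%, 23.2% and 17.4% in the DCBQ samples, 9.21 points higher (SE 2.56). The 5mC of the same 8 CpGs was 44.0%, 35.9% and 46.4% against 28.4%, 32.7% and 37.6%, 9.22 points lower, with overlapping groups. Among the NLRP5 CpGs whose groups did not overlap, this patch includes those with the largest difference in each mark. One, at chr19:56062994-56062995, had 100% 5mC in each control sample and 50%, 70% and 88.9% in the DCBQ samples. The other, at chr19:56063002-56063003, had 28.6%, 22.8% and 0% 5hmC in the control samples and 40.0%, 42.9% and 50% in the DCBQ samples.

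In the promoter window of NLRP5, the CpG at chr19:55986549-55986550, 226 bases before the start, had 68.8%, 73.9% and 62.5% 5mC in the control samples and 56.5%, 60.0% and 61.1% in the DCBQ samples. It was the only 1 of the 3 printed CpGs whose groups did not overlap. The CpG at chr19:55986668-55986669, 107 bases before the start, was the least methylated, at 0%, 37.5% and 11.1% in the control samples and 7.10%, 0% and 12.5% in the DCBQ samples.

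NLRP9 and NLRP8 each had a patch of 3 CpGs in which the marks differed in opposite directions. In NLRP9 (chr19:55723534-55723652), 5mC was 27.5%, 46.2% and 30.5% in the control samples and 50.2%, 51.6% and 53.7% in the DCBQ samples, while 5hmC was 15.5%, 9.05% and 34.3% against 2.38%, 0% and 7.41%. The groups did not overlap in either mark, with differences of 17.1 and -16.4 points. Among the CpGs of NLRP9 whose groups did not overlap, the 3′-most CpG of this patch on the plus strand had the largest 5mC difference. It held 100% in each DCBQ sample and 37.5%, 75.0% and 71.4% in the controls. In NLRP8 (chr19:55955863-55955907), 5mC was 39.6%, 39.5% and 39.7% against 45.3%, 49.8% and 45.6%, and 5hmC was 15.7%, 17.5% and 11.8% against 5.16%, 7.62% and 5.88%. Here too neither mark overlapped between the groups.

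Opposite signs of the 2 marks were common. Over the 441 CpGs of the 9 genes listed in both tables, the difference in 5hmC correlated with that in 5mC at r = -0.567, and the signs were opposite at 303 CpGs and equal at 127. Over the 3533825 CpGs shared by the tables, r was -0.594. CpGs are not independent replicates, and both marks draw on the oxRRBS libraries; the part of this in the correlation was not tested.

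**Figure D3:**
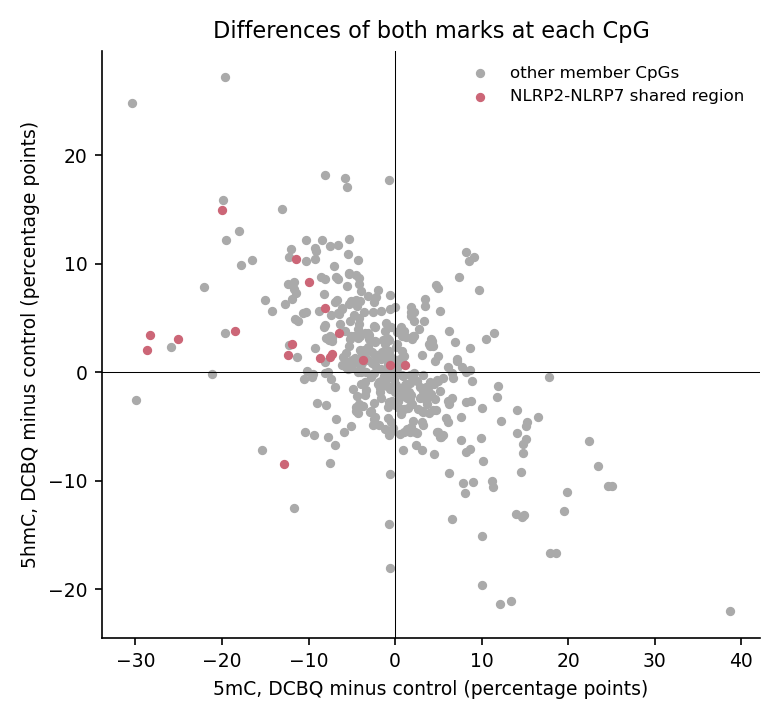
Difference (DCBQ minus control, percentage points) in 5hmC against that in 5mC at each of the 441 CpGs listed for both marks, with the CpGs in the overlap of the NLRP2 and NLRP7 spans in red. Points run from upper left to lower right, r = -0.567.

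The remaining genes were described by their most different CpGs with groups that did not overlap. In NLRP7 the 5mC of the CpG at chr19:54945890-54945891 was 66.7%, 57.1% and 54.5% in the control samples and 44.4%, 42.9% and 40.0% in the DCBQ samples. The next in NLRP7 differed by -11.5 points (chr19:54937110-54937111), the second in NLRP9 by -17.8 points (chr19:55739208-55739209) and the second in NLRP5 by -29.9 points (chr19:55990717-55990718). NLRP2 had such CpGs in both directions, from -22.8 points at chr19:54978703-54978704 to 19.9 points at chr19:54975537-54975538. So did NLRP4, with 25.1 points at chr19:55854868-55854869 and -12.4 points at chr19:55858255-55858256. NLRP8 showed -26.4 points at chr19:55966524-55966525 and 14.7 points at chr19:55984458-55984459. The pair of NLRP12 was lower by similar amounts, -11.9 and -11.6 points, and NLRP11, a gene that mice lack, had the smallest, 8.83 and -3.50 points.

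In 5hmC, NLRP2 had only 1 CpG whose groups did not overlap, and NLRP8 had none. The NLRP2 CpG, at chr19:54968952-54968953, had 11.1%, 31.2% and 33.3% 5hmC in the control samples and 0%, 7.69% and 9.09% in the DCBQ samples. NLRP12 had 1 CpG 17.9 points higher (chr19:53809247-53809248) and another that differed by -10.5 points (chr19:53809182-53809183). The pair in NLRP7, at chr19:54925892-54925893 and chr19:54925916-54925917, differed by 5.84 and -9.27 points, so that both directions occurred within 1 patch of each of these genes. For NLRP9, NLRP4 and NLRP11, the 2 largest differences among CpGs whose groups did not overlap were higher values in the DCBQ samples. They were 11.4 and 10.3 points in NLRP9, 11.6 and 11.2 in NLRP4, and 12.2 and 11.6 in NLRP11. These genes also had 1, 1 and 2 CpGs whose groups separated with lower 5hmC. One CpG, described with the NLRP11 and NLRP4 overlap, counts for both of these genes.

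NLRP13 had 2 CpGs that separated the groups in both marks. At chr19:55931565-55931566, inside the gene, 5hmC was 0% in each control sample and 19.05%, 12.3% and 23.1% in the DCBQ samples, while 5mC was 23.1%, 19.4% and 21.7% against 16.7%, 15% and 8.30%. At chr19:55932593-55932594, outside the gene, the directions were the other way: 5mC was 19.5 points higher, and 5hmC differed by -12.8 points.

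NLRP11 and NLRP4 lie head to head, with starts at 55836575 on the minus strand and 55836540 on the plus strand. Their spans overlap over 11 CpGs, all in 1 patch. This patch had 31.5%, 25.3% and 30.2% 5mC in the control samples and 18.7%, 25.9% and 23.9% in the DCBQ samples, -6.14 points with overlapping groups. Its 5hmC was 8.96%, 4.57% and 11.2% against 8.76%, 11.7% and 11.4%, 2.38 points higher (two-sided exact permutation p = 0.4, n = 3 per group, where 0.1 is the smallest p the design allows). One of its CpGs, at chr19:55835612-55835613 inside NLRP11, separated the groups in 5hmC: 0%, 0% and 6.45% in the control samples against 10%, 16.3% and 15%. The overlap of NLRP8 with NLRP5 showed 5mC of 55.8% in the controls and 56.2% in the DCBQ samples over 13 CpGs.

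The region shared by NLRP2 and NLRP7 was the 3960 bp in which their extended spans overlap, chr19:54963784-54967743, around both printed NLRP2 windows. It held 28 CpGs for 5mC and 18 for 5hmC. The 5mC level was 76.3%, 72.5% and 73.1% in the control samples and 67.3%, 69.3% and 66.0% in the DCBQ samples. The groups did not overlap, with means of 74.0% ± 2.05 and 67.5% ± 1.65 (SD, n = 3) and a difference of -6.43 points (SE 1.52). It was -2.04 points with the spans extended by 500 bp, -2.95 points with 5000 bp, and -12.2 points over the CpGs in both tables. 21 of the 28 CpGs had a lower mean in the DCBQ samples, but only 2 had groups that did not overlap. Outside the shared region, the rest of the NLRP2 span differed by 1.37 points (SE 1.85) and the rest of the NLRP7 span by -1.11 points (SE 1.96). In NLRP7, 26 of the 47 CpGs with a lower mean, and 4 of the 6 whose groups separated, lay outside the overlap.

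The 5hmC level of the shared region was 1.64%, 6.02% and 3.80% in the control samples and 6.27%, 9.14% and 5.73% in the DCBQ samples. It was 3.23 points higher (SE 1.65, two-sided exact permutation p = 0.2), with Control2 above DCBQ3. Of the 18 CpGs, which lay in patches of 12 and 6, 17 had a higher mean, but none had groups that did not overlap. Over the 9 genes, 237 of 441 CpGs had a higher mean. The lower 5mC of the region was seen beforehand, and both marks draw on the oxidative libraries. The part of this in the count was not tested. Exact zeros made up 57.4% of the values at the 18 CpGs. With the spans extended by only 500 bp, which leaves 1 patch, the difference was 6.29 points (exact permutation p = 0.1), and with 5000 bp it was 0.838 points (p = 0.8).

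The CpGs of the shared region fell into 3 patches. The first, of 13 CpGs from 975 to 773 bp before the first NLRP2 start, had 76.8%, 67.0% and 73.4% 5mC in the control samples and 65.5%, 58.4% and 58.8% in the DCBQ samples, a difference of -11.5 points (SE 3.66). Its groups did not overlap. The second, of 10 CpGs from 202 to 320 bp after that start, had 67.2%, 74.2% and 71.2% against 59.0%, 72.1% and 65.1%, -5.48 points with overlap. The third, of 5 CpGs from 1316 to 1347 bp after the first start, was higher by 4.85 points (SE 5.26), at 84.2% ± 8.69 in the controls and 89.1% ± 2.71 in the DCBQ samples (SD, n = 3). In 5hmC the second patch separated the groups, at 2.85%, 2.26% and 2.96% in the control samples and 11.1%, 5.89% and 9.91% in the DCBQ samples over 6 CpGs.

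**Figure D4:**
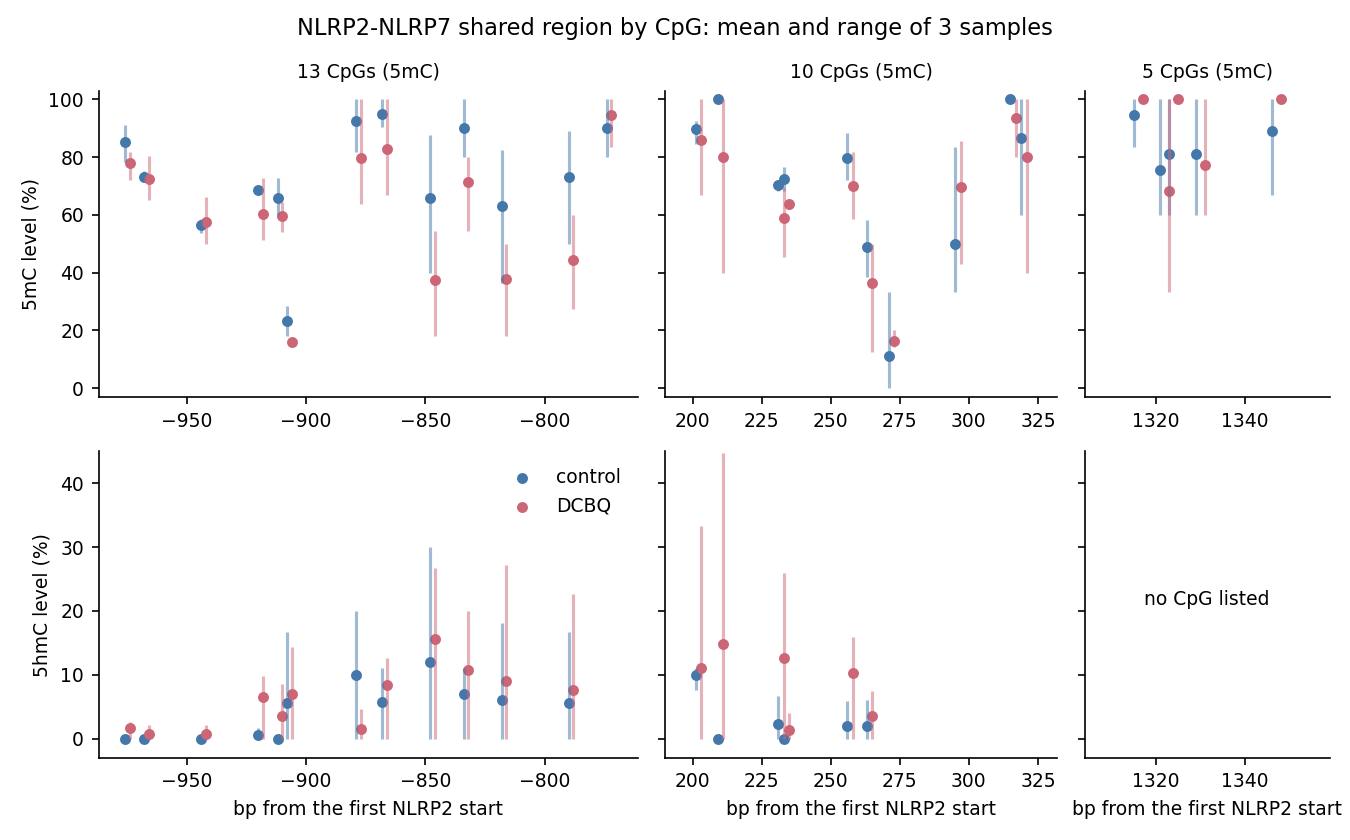
5mC (upper row) and 5hmC (lower row) in percent at each CpG of the NLRP2-NLRP7 shared region, by distance in bp from the first NLRP2 start; points are means and lines the range of 3 samples, control in blue and DCBQ in red. The first patch, 13 CpGs before the start, carries the lowest DCBQ values relative to control, and the ranges of the groups overlap at most CpGs.

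Within the first patch, 3 nearby CpGs gave similar values in each sample. The CpG 789 bp before the start (chr19:54964495-54964496) had the largest difference of the region, with 88.9%, 50% and 80% 5mC in the control samples and 45.5%, 27.3% and 60.0% in the DCBQ samples. Those at 847 and 817 bp before the start gave 87.5%, 40.0% and 70.0% against 40.0%, 18.2% and 54.5%, and 82.4%, 36.4% and 70.0% against 45.5%, 18.2% and 50%. In all 3 CpGs Control2 lay below DCBQ3, so their groups overlapped although their differences were -28.7, -28.3 and -25.0 points. The other 5 of the 8 largest differences ran from -20 to 19.6 points, again with overlap. The CpG 272 bp after the start was the least methylated in the controls, at 0%, 0% and 33.3%, and that 210 bp after it was complete at 100% in all but DCBQ3, which had 40.0%. Of the 3 CpGs with the highest mean 5hmC in the region, none separated the groups; the highest, 847 bp before the start, had 6.25%, 30.0% and 0% in the control samples and 26.7%, 20% and 0% in the DCBQ samples.

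The shared region is present more than once in the deposited tables. Besides chromosome 19 itself, they list CpGs on 28 alternate contigs of that chromosome, which hold other versions of parts of it. On 8 of these contigs, CpGs recur at a constant distance from those of NLRP2 and NLRP7: between 33 and 54 of the 72 NLRP7 CpGs and between 45 and 54 of the 75 NLRP2 CpGs matched at 1 shift per contig. No other gene of the 9 reached 15 matches on any of the 28 contigs. No source used here says how reads that match several versions were assigned.

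At these copies the 5mC difference took both signs. The shared region differed by -5.14 to 7.24 points over the 8 copies, lower in 3 and higher in 5, with a median of 1.54 points. In 1 copy every DCBQ sample lay below every control (70.7%, 67.6% and 67.1% against 65.9%, 59.2% and 65.0%), and in another every DCBQ sample lay above (60.6%, 59.3% and 65.6% against 67.1%, 73.1% and 66.9%). With each CpG averaged over the 8 copies, 5mC was 67.9%, 65.5% and 69.8% in the control samples and 68.1%, 70.2% and 66.8% in the DCBQ samples, a difference of 0.600 points (SE 1.601). Without the copy that was higher in every DCBQ sample, the difference was -0.309 points (SE 1.53). No average was made without the copy that was lower in every DCBQ sample. With all 8 copies and chromosome 19, the difference was -0.080 points (SE 1.42). Restricted to the 27 CpGs listed on both, it was -6.84 points on chromosome 19 and 0.572 points on the copies.

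**Figure D5:**
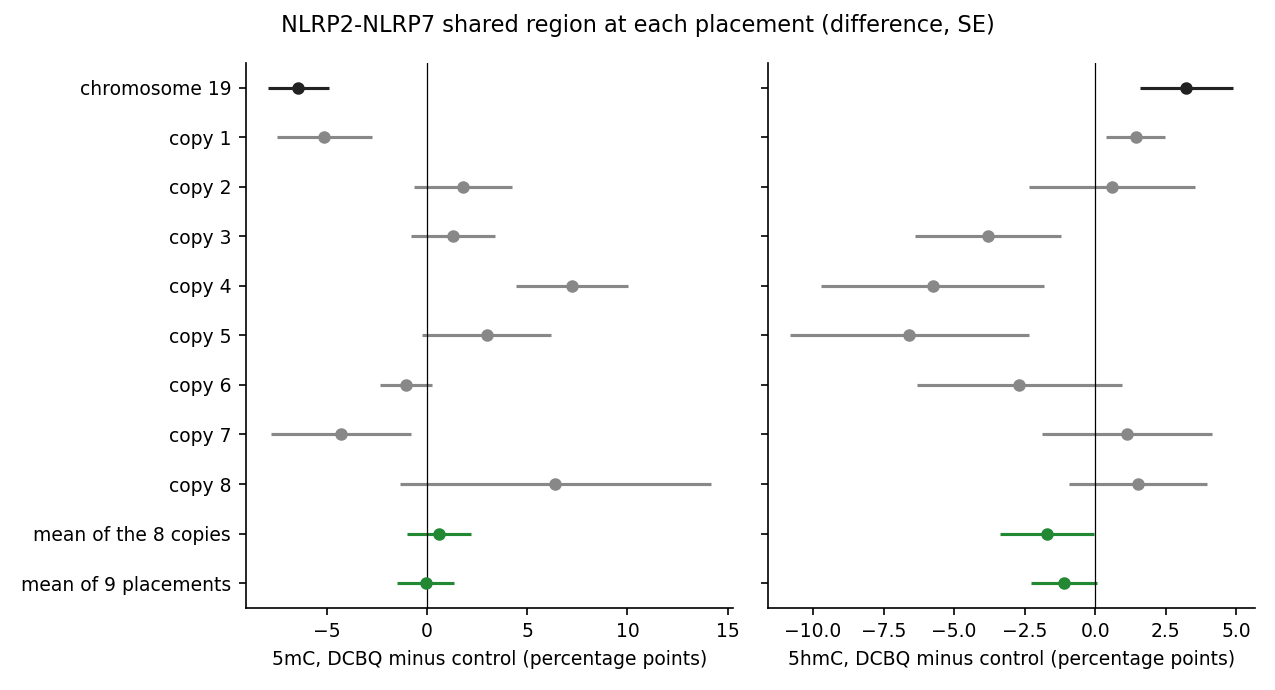
Difference (DCBQ minus control, percentage points, with SE) of the NLRP2-NLRP7 shared region on chromosome 19 (black), at its 8 copies on alternate contigs (grey) and with each CpG averaged over placements (green), for 5mC (left) and 5hmC (right). Chromosome 19 lies at -6.43 points in 5mC, the copies lie on both sides of 0, and the mean of 9 placements is -0.080 points.

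The 5hmC of the shared region also took both signs at the copies. It differed by -6.59 to 1.53 points, lower in 4 and higher in 4, and by -1.71 points (exact permutation p = 0.4) with each CpG averaged over the 8. Without the copy in which 5mC was higher in every DCBQ sample, this became -0.060 points (exact permutation p = 1.0). The 5hmC of the second patch, after the start, was 6.29 points higher on chromosome 19 but lower in 5 of its 8 copies and higher in 3. With each CpG averaged over these copies, it differed by -2.08 points (exact permutation p = 0.5). Over the 6 CpGs listed on both, it was -2.99 points on the copies. The 13-CpG patch before the start, -11.5 points on chromosome 19, was listed on 7 copies, lower in 4 and higher in 3. Their median difference was -1.37 points, and the mean per CpG over them 1.71 points (SE 3.75). The latter rested on the same copy, which had 38.8 points over only 4 CpGs: without it the mean was -1.30 points (SE 3.75). The 8 CpGs picked for the largest 5mC differences on chromosome 19 differed by -5.27 to 11.4 points over their copies. The CpG 789 bp before the start, -28.7 points on chromosome 19, differed by 0.400 points over its 5 copies, and by -14.1 points without that copy. For the whole spans, averaging each CpG over all 9 placements gave 5mC differences of -0.353 points (SE 0.932) in NLRP7 and -0.422 points (SE 1.23) in NLRP2. These averages cover 130 and 106 CpGs, whereas the -3.18 and -1.55 points on chromosome 19 rest on 72 and 75. Over the 71 NLRP7 CpGs listed on both, the difference was -3.29 points on chromosome 19 and 0.825 points on the copies. Over the 74 such CpGs of NLRP2, it was -1.63 points on chromosome 19 and -1.35 points on the copies. The part of read assignment in these values was not tested.

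The spacing of CpGs in the first patch also recurred elsewhere. In 2563 other places of the 5mC table, at least 11 of its 13 CpGs were matched at the same spacing, in either orientation. For 5 of the 17 patches of at least 10 CpGs in these genes there was no such place, among them the patch of 15 CpGs in NLRP5 and the NLRP11-NLRP4 patch. The patches with the next most were 1 in NLRP12 (2057 places) and 1 in NLRP5 (1900 places).

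Other genes of the pathway were described by lists. Of 13 other NLR genes, the family to which NLRP proteins belong, 8 had lower and 5 higher 5mC, with a median of -0.224 points, and limma called none for either mark. For 5mC it called 0 of the 18416 spans (0.0%), with 1680 (9.12%) at an unadjusted p under 0.05. NOD1, a sensor of bacterial peptidoglycan, had 70.9%, 70.3% and 70.7% in the control samples and 69.5%, 70.1% and 68.8% in the DCBQ samples (limma, adjusted p = 0.535), and NLRP10 differed by 1.35 points. In 5hmC the largest differences of this list were 2.36 points in NAIP, a sensor of flagellin, and 0.814 points in NLRP1. Of 14 measured inflammasome genes out of 18, 12 had lower 5mC, with a median of -0.522 points. The 2 largest differences in size were those of PYDC1, which encodes a small pyrin-only protein, at -3.14 points with groups that did not overlap (limma, adjusted p = 0.483), and of the cytokine gene IL18, at -2.07 points over only 5 CpGs. In 5hmC, IL1A differed by -2.29 and AIM2, a DNA sensor, by 1.92 points, and limma called no gene of the list.

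Among 14 oocyte genes, 6 had lower and 8 higher 5mC, with a median of 0.048 points. The zona pellucida genes ZP2 and ZP1 stood at the ends, with -8.53 points over 5 CpGs and 8.26 points over 11, and both had the opposite sign in 5hmC, at 4.83 and -6.14 points. Of the 85 other protein-coding genes between NLRP12 and NLRP5, 73 were measured for 5mC, 49 lower and 24 higher, with a median of -0.370 points and a median control level of 53.4%. LILRA4, a receptor of plasmacytoid dendritic cells, had the largest difference in both marks. Its 5mC was 49.1%, 47.8% and 58.7% in the control samples and 45.1%, 42.7% and 33.6% in the DCBQ samples, and its 5hmC 7.17%, 8.09% and 1.54% against 10.2%, 18.1% and 18.4% (limma, adjusted p = 0.962). Next were LILRA1 in 5mC, at -6.68 points, and TMC4 in 5hmC, at -7.03 points. Limma called none of the oocyte or neighbouring genes in either mark.

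The spans whose 5mC followed that of the shared region most closely over the 6 samples, out of 18405 that do not overlap the 9 genes, were LHFPL5 (Pearson r = 0.999), ZNF469 (0.995) and PDGFA (0.994). Their differences were smaller, at -1.99, -0.479 and -0.873 points. They were picked as the highest of many values over 6 samples and are given as a description.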

How the data were processed

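The authors deposited a fraction per CpG, from 0 to 1, in 1 table of 5mC and 1 of 5hmC, with 5 reads or more per CpG and both strands merged, per the file names. The submitters' processing notes name hg38 as the build, and BSMAP 2.90, cutadapt and Trim Galore as tools. How levels of the 2 library types were combined is not stated in them. DNA came from a QIAamp kit, and libraries from the Ovation RRBS Methyl-Seq system with the TrueMethyl oxidative kit, per the labels' protocols. Levels are printed as percent, and positions are the C of the CpG on the plus strand: all 20546 listed positions inside RefSeq promoter windows of chromosome 19 held CG.

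A span was a protein-coding gene of the RefSeq table (GRCh38.p14) plus 1500 bp on either side, with at least 5 CpGs, and its level the mean over CpGs. Spans and single CpGs were fitted with limma 3.58.1 (R 4.3.3; trended variance, Benjamini-Hochberg adjustment over the whole table). A span was called at an adjusted p of 0.05, and a CpG also needed 10 percentage points. The script was tested on simulated data. The shared region's 5hmC was tested with a two-sided exact permutation test over all 20 relabellings (scipy 1.17.1). Other values were computed with numpy 2.4.6 and pandas 2.3.3 in Python 3.11.15.

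All 9 genes are named, with the 2 CpGs of largest difference per gene and mark among those whose groups did not overlap, 8 CpGs of the shared region, its extremes, 3 spans of like pattern and 2 genes per list and mark. The genes and lists were chosen with earlier results of these data known. The patches, copies and CpG spacing were examined after seeing the data, and patches are named beyond that rule. No column belonged to any other sample. Alternatives covered the flank, the CpG minimum, median levels, CpGs in both tables, a logit scale, the variance trend, left-out samples and a replicate block.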

Additional observations from a re-analysis of the deposited data

How the results depend on the processing

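The depth behind the fractions is unknown, so counting error could not be separated from the spread of 3 samples, and exact tests could not go below p = 0.1. Of 126 alternatives over the 9 genes, the sign of the 5mC difference changed in 14, in NLRP12, NLRP2, NLRP9, NLRP11, NLRP13 and NLRP8, and that of 5hmC in 11; NLRP7, NLRP4 and NLRP5 stayed negative in 5mC in all 14 of theirs, from -4.71 to -1.35, -4.48 to -0.831 and -4.43 to -1.10 points. 5hmC stayed uncalled by limma in all 126. Its sign changed in NLRP2 on the logit scale (0.158) and with the median over CpGs (0.926), in NLRP11 with the median (-0.034), and when leaving out single samples, over which it ranged from -1.01 to 1.20 in NLRP2, -1.02 to 0.221 in NLRP9, -0.244 to 2.16 in NLRP11 and -0.722 to 1.78 points in NLRP13. The shared region's 5mC difference became -2.04 with a 500 bp flank, -2.95 with 5000 bp, -12.2 over CpGs in both tables, and, as alternatives chosen after seeing the data, 0.600 over the copies alone, -0.309 over them without the copy of largest difference, and -0.080 over all placements; leaving out 1 sample gave -7.32 to -5.27. Its 5hmC difference became -1.71 over the copies, -0.060 without that copy and -1.10 over all placements (exact permutation p = 0.5); leaving out 1 sample gave 2.14 to 4.33. Limma's 0 called spans (1680 for 5mC and 946 for 5hmC at an unadjusted p under 0.05) became 1 for each mark with a 5000 bp flank, and 3 for 5mC and 153 for 5hmC with the median over CpGs. The 1 called 5hmC CpG became 9 among CpGs with a range of at least 5 points and 0 without trend, without each sample in turn and with the replicate block. The causes of these shifts were not tested. Same-numbered samples did not deviate together over the spans (correlations of -0.036 to 0.011). The labels do not say whether they were handled as pairs, and these correlations cannot decide it. In the fit with the replicate block, 0 spans were called for either mark. With the block, the shared region's differences were -6.43 (SE 1.71) for 5mC and 3.23 (SE 0.778) for 5hmC. For 5hmC, a two-sided exact test that flips the signs of the 3 paired differences gave p = 0.25, the smallest it allows. Without the block, the SEs were 1.52 and 1.65.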
